A study of Mus musculus with 40 samples.

Results

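The insulin-like growth factor (IGF) axis was followed through 8 genes: the ligand gene Igf1, the receptor gene Igf1r and the binding protein genes Igfbp2, Igfbp3, Igfbp4, Igfbp5, Igfbp6 and Igfbp7. They were chosen by name, with earlier results of these data known. All 8 were found among the 55536 genes of the deposited count tables and passed the filter on low counts. IGF1 is a secreted growth factor that signals through the receptor tyrosine kinase IGF1R, and most IGF in body fluids is held by binding proteins that lengthen its life, keep it from the receptor or release it when proteases cut them. In lung, macrophages and mesenchymal cells are known sources of IGF1, and members of the binding protein family are studied in fibrosis, where IGFBP3 and IGFBP5 also have actions of their own. IGFBP6 prefers IGF2 over IGF1, and IGFBP7 binds IGFs weakly and is a protein of vessel walls and matrix.

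RNA was sequenced from the left lungs of 40 C57BL/6 mice of both sexes, with sex and age not given for single samples, in 8 groups of 5. The bleomycin model had bleomycin with saracatinib, bleomycin with vehicle, saline with saracatinib and saline with vehicle; bleomycin, a DNA-damaging drug that injures lung, was given once at 1.5 U/kg into the airway through the mouth. The Ad-TGFb model had Ad-TGFb with saracatinib, Ad-TGFb with vehicle, empty vector with saracatinib and empty vector with vehicle, where Ad-TGFb is an adenovirus given through the nose that carries mouse Tgfb1 under the CMV promoter. Saracatinib, an inhibitor of Src family kinases, was gavaged daily at 20 mg/kg from day 10, vehicle groups were gavaged likewise, and all lungs were taken on day 28. The comparisons address how the IGF genes stood in each injury and whether saracatinib changed them.

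Libraries held 8.81 to 17.3 M counts, and the 8 genes had between 153 (Igf1) and 7757 (Igfbp5) counts in a library. Levels are given as CPM, which are counts scaled to the library total after TMM scaling of all 40 libraries together, with the 5 lungs of a group listed by library number. Differences are log2 fold changes ± standard error from edgeR's quasi-likelihood test, and a gene is called where the Benjamini-Hochberg adjusted p over all genes of the fit is under 0.05. No batch is labelled, and the libraries farthest from their group means were number 5 of the saline saracatinib and saline vehicle groups and numbers 5 and 1 of the empty vector vehicle group. The lung markers listed for alveolar, airway and endothelial cells were present in every group. The 2 liver markers, for a tissue that should be absent, summed to at most 0.595 CPM in the bleomycin model. In the Ad-TGFb model their sum reached 13.6 CPM, in an empty vector vehicle lung. In whole lung, fewer cells of a type and less RNA per cell cannot be told apart. The bleomycin vehicle and the Ad-TGFb vehicle lungs each stand in both an injury and a drug comparison, so these comparisons are not independent.

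Coordinates are GRCm38. Igf1 lies on the plus strand at chr10:87858265-87937042, Igf1r on the plus strand at chr7:67952827-68233668 and Igfbp6 on the plus strand at chr15:102144362-102149511. Igfbp2 (chr1:72824503-72852474, plus) and Igfbp5 (chr1:72857932-72874884, minus) are neighbours, tail to tail, with 5457 bases between them. Igfbp3 (chr11:7206086-7213923, minus) is paired in the same way with Igfbp1, 3539 bases away, and Igfbp4 is elsewhere on that chromosome (chr11:99041244-99054392, plus). Igfbp7 (chr5:77349240-77408041, minus) shares 85 exon bases, 7.03% of its exon length, with Polr2b on the other strand, and no source used here gives the strand setting of the counting. Igf1os, antisense to Igf1, shares no exon base with it and had 17 counts in all 40 libraries, against 32395 for Igf1.

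The promoters of Igf1, Igfbp3 and Igfbp6 are shown because these genes had the largest bleomycin changes: Igf1 was higher and the other two were lower. Each stretch holds 300 bases, 250 before and 50 after the RefSeq start on GRCm38.p6, written 5′ to 3′ on the gene's strand with CpG dinucleotides in capitals: Igf1 at chr10:87860861-87861160 (plus), Igfbp3 at chr11:7213874-7214173 (minus) and Igfbp6 at chr15:102143936-102144235 (plus).
Igf1: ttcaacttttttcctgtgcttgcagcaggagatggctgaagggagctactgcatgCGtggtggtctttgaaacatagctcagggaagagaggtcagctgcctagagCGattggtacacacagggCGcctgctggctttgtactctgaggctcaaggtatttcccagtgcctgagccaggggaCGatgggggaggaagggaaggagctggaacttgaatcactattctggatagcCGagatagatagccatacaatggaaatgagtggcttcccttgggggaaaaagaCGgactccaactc
Igfbp3: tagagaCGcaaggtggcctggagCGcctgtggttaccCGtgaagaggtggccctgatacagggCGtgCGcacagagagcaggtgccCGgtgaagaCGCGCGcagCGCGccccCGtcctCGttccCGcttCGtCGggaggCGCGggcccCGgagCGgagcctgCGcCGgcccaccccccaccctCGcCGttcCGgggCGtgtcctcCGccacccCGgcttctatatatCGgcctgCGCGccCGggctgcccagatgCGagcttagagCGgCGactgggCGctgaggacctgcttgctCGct
Igfbp6: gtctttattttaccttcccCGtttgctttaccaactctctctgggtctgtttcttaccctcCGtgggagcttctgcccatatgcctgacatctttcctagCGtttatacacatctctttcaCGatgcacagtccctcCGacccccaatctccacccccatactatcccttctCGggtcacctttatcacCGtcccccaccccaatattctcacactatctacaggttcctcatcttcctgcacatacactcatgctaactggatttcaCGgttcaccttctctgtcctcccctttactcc

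The Igf1 stretch lies inside the annotated gene span, because RefSeq gives a start downstream of the first annotated base. It held 6 CpGs and the Igfbp6 stretch 8, against a median of 7 over the 32544 RefSeq promoters of this length. Igfbp3 held 37, and 94.4% of promoters have fewer. The motif CAGAC, read on both strands (as CAGAC or GTCTG), was found in 49.5% of all promoters of this length; it occurred once in Igfbp6 and at no position of Igf1 or Igfbp3. The motif TATAAA, also read on both strands (as TATAAA or TTTATA), was found in 13.6% of promoters and occurred once in Igfbp6. These matches only describe the letters of the windows.

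Per length, Igfbp7 was the most abundant of the 8 transcripts, with a mean of 231 CPM per kilobase of exon over the 40 lungs. Igfbp5 (59.3 CPM per kilobase), Igfbp6 (49.1), Igfbp2 (45.8) and Igfbp4 (40.2) followed. Igfbp3 had 17.6 and Igf1r 15.7 CPM per kilobase, and Igf1 was the lowest with 6.45.

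**Figure D1:**
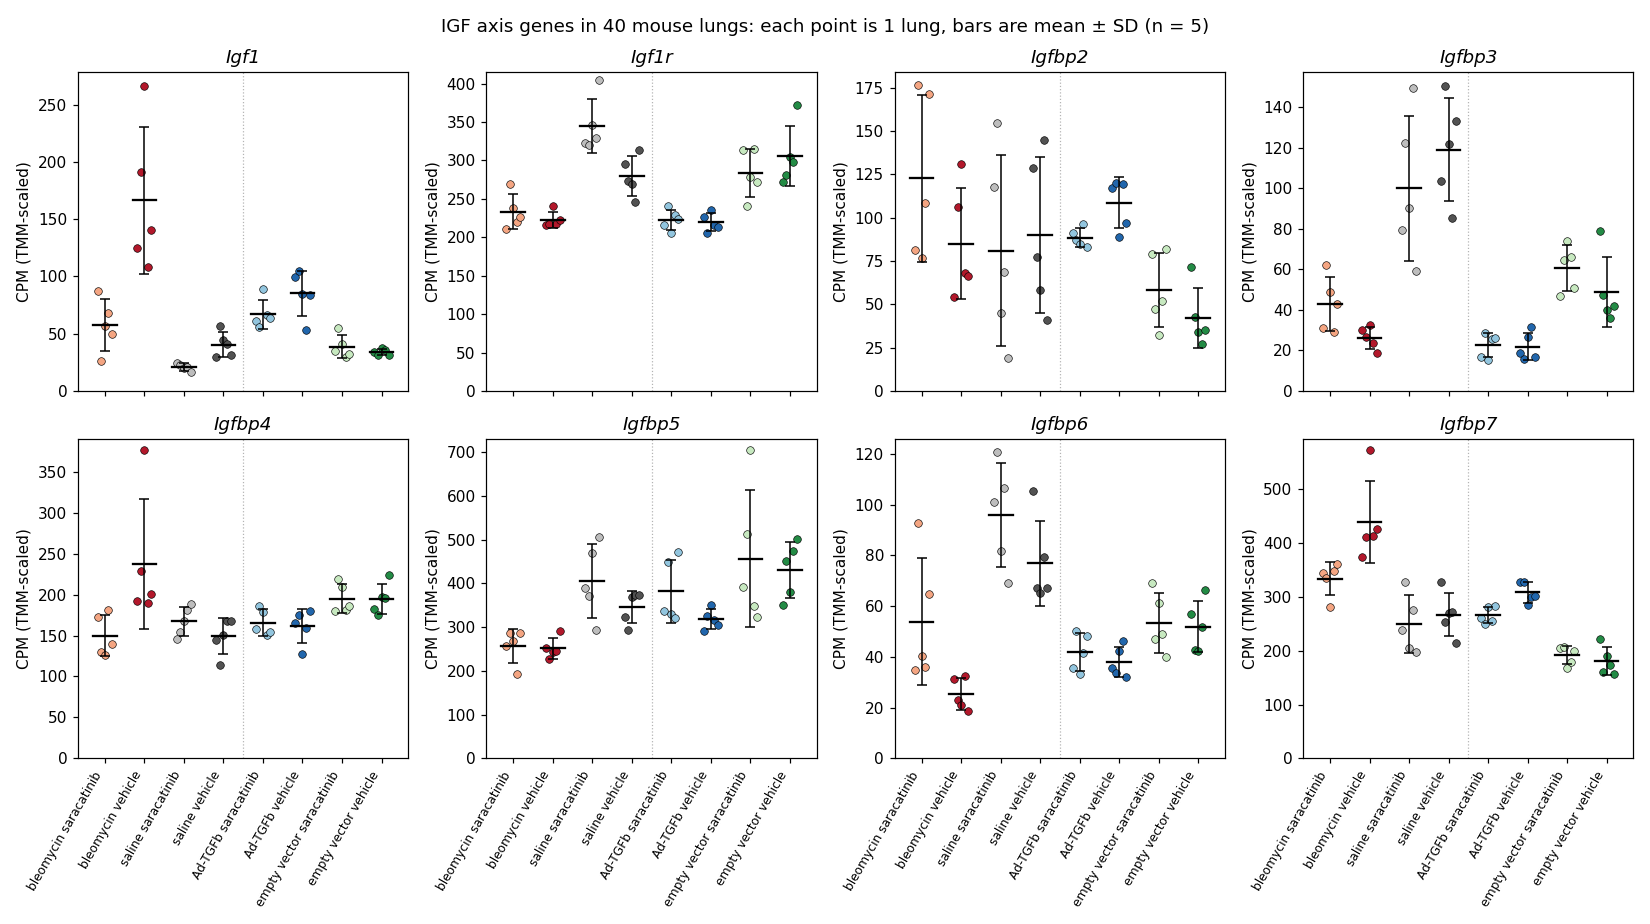
TMM-scaled CPM of the 8 genes in each of 40 lungs, with group means and SD as bars (n = 5 per group); the dotted line separates the bleomycin model, left, from the Ad-TGFb model, right. Igf1 was highest in bleomycin vehicle lungs, at 108 to 266 CPM, and Igfbp3 was lowest in the Ad-TGFb groups and bleomycin vehicle lungs, at 15.4 to 32.6 CPM.

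Bleomycin injury moved 7 of the 8 genes. In vehicle-treated mice, Igf1, Igfbp4 and Igfbp7 were higher in bleomycin than in saline lungs, Igf1r, Igfbp3, Igfbp5 and Igfbp6 were lower, and Igfbp2 was not called. Of all 18846 genes tested, 20.6% were called higher and 20.3% lower. The groups did not overlap for any of the 7, nor did they for 26.7% of all genes tested. The median log2 fold change was -0.23 over the 8 genes and -0.03 over all genes tested.

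Igf1, the ligand, had 125, 192, 266, 108 and 141 CPM in bleomycin vehicle lungs, against 29.4, 56.5, 44.5, 40.8 and 31.6 CPM in saline vehicle lungs. All 5 bleomycin lungs stood above all 5 saline lungs, and library 3 was the highest. The means were 166 ± 63.9 CPM in bleomycin and 40.5 ± 10.9 CPM in saline lungs (SD, n = 5 each). The fold change fitted by edgeR was 4.03 (log2 fold change 2.01 ± 0.27, edgeR adjusted p = 1.37e-05).

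Igfbp3, the main carrier of IGF in blood, had 30.0, 26.6, 32.6, 23.7 and 18.7 CPM in bleomycin vehicle lungs, against 104, 151, 122, 85.5 and 133 CPM in saline vehicle lungs. The highest bleomycin lung stood far below the lowest saline lung. The log2 fold change was -2.20 ± 0.24 (edgeR adjusted p = 1.95e-06), the largest in size among the 8 genes in this comparison. Igfbp6, the binding protein that prefers IGF2, had 31.4, 23.0, 21.0, 32.6 and 18.6 CPM in bleomycin vehicle lungs, against 105, 67.3, 65.3, 79.2 and 67.1 CPM in saline vehicle lungs. Here too the groups stood apart, with a log2 fold change of -1.63 ± 0.25 (edgeR adjusted p = 5.16e-05).

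Igfbp4, a binding protein cut by the protease PAPP-A, had 192, 229, 376, 189 and 200 CPM in bleomycin vehicle lungs, against 144, 114, 150, 168 and 168 CPM in saline vehicle lungs. Library 3 of the bleomycin vehicle group stood far above the other 4. The log2 fold change was 0.65 ± 0.16 (edgeR adjusted p = 0.00374) with that library and 0.43 without it (edgeR adjusted p = 0.0102). Igfbp7 had 375, 411, 572, 412 and 425 CPM in bleomycin vehicle lungs, against 327, 253, 270, 271 and 215 CPM in saline vehicle lungs. The groups did not overlap, and the log2 fold change was 0.69 ± 0.14 (edgeR adjusted p = 0.000529).

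Igf1r, the receptor, moved less: it had 216, 217, 241, 217 and 222 CPM in bleomycin vehicle lungs, against 296, 273, 269, 246 and 313 CPM in saline vehicle lungs. Its log2 fold change was -0.35 ± 0.08 (edgeR adjusted p = 0.00156), opposite in sign to that of its ligand. Igfbp5, a binding protein that attaches to matrix, had 228 to 292 CPM in bleomycin and 293 to 374 CPM in saline vehicle lungs (log2 fold change -0.48 ± 0.13, edgeR adjusted p = 0.00619). These Igfbp5 ranges were almost touching. Igfbp2 spread widely in both groups, from 54.2 to 131 CPM in bleomycin and from 41.1 to 145 CPM in saline vehicle lungs, and was not called (-0.11 ± 0.43, edgeR adjusted p = 0.866).

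Saracatinib in bleomycin-injured mice went with lower Igf1 and Igfbp4 and higher Igfbp6. These 3 of the 8 genes were called, 1 higher and 2 lower, where 5.31% of all genes tested were called higher and 8.71% lower. Each had moved in the other direction with bleomycin itself, in a comparison that shares the bleomycin vehicle lungs. Igfbp2, Igfbp3, Igfbp5, Igfbp7 and Igf1r were not called. The groups did not overlap for 4 of the 8 genes, nor did they for 9.94% of all genes tested. The median log2 fold change was 0.05 over the 8 genes and 0.01 over all genes tested.

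Igf1 had 87.1, 26.3, 56.4, 68.0 and 49.5 CPM in bleomycin lungs on saracatinib, beside the 108 to 266 CPM of bleomycin lungs on vehicle. The groups did not overlap, and the treated mean of 57.5 ± 22.5 CPM (SD, n = 5) corresponded to a fitted 0.346 of the vehicle level (log2 fold change -1.53 ± 0.27, edgeR adjusted p = 0.00225). Treated bleomycin lungs still had more Igf1 than treated saline lungs, which had 24.4, 23.1, 20.5, 20.8 and 16.2 CPM (log2 fold change 1.43 ± 0.28, edgeR adjusted p = 0.00217).

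Igfbp6 had 35.0, 92.9, 40.2, 35.9 and 65.0 CPM in bleomycin lungs on saracatinib, beside 18.6 to 32.6 CPM on vehicle. Libraries 2 and 5 were the highest, and the lowest treated lung was only just above the highest vehicle lung. The log2 fold change was 1.09 ± 0.25 (edgeR adjusted p = 0.00783), a fitted 2.13-fold. Igfbp4 had 172, 130, 126, 181 and 140 CPM on saracatinib, beside 189 to 376 CPM on vehicle, with no overlap. Its log2 fold change was -0.66 ± 0.16 (edgeR adjusted p = 0.0119), and -0.44 without library 3 of the vehicle group (edgeR adjusted p = 0.0347).

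Of the genes not called, Igfbp3 had 31.3, 62.3, 48.9, 29.3 and 42.7 CPM in bleomycin lungs on saracatinib, beside 18.7 to 32.6 CPM on vehicle, and the groups overlapped (0.71 ± 0.24, edgeR adjusted p = 0.054). Igfbp7 had 281 to 361 CPM on saracatinib and 375 to 572 CPM on vehicle, which did not overlap (-0.39 ± 0.14, edgeR adjusted p = 0.057). Both lay next to the threshold: DESeq2 called them with adjusted p of 0.0264 for Igfbp3 and 0.0331 for Igfbp7, and both were also called in a fit of only the compared groups. Most alternatives did not call them: of 16, 5 called Igfbp3 and 4 called Igfbp7 (adjusted p up to 0.172 and 0.196). Igf1r (0.07 ± 0.08), Igfbp5 (0.03 ± 0.13) and Igfbp2 (0.53 ± 0.43) gave edgeR adjusted p of 0.614, 0.902 and 0.446.

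In uninjured saline mice no member was called with saracatinib, where 0% of all genes tested were called higher and 0.00531% lower. The 2 genes with an unadjusted p under 0.05 in edgeR were Igf1 and Igf1r, among 1401 such genes, and DESeq2 and limma voom also called none of the 8. Igf1 had 16.2 to 24.4 CPM in saline lungs on saracatinib and 29.4 to 56.5 CPM in saline lungs on vehicle, without overlap (-0.95 ± 0.28, edgeR adjusted p = 0.394). Igf1r had 323, 321, 346, 329 and 405 CPM in saline lungs on saracatinib and 246 to 313 CPM on vehicle, also without overlap (0.30 ± 0.08, edgeR adjusted p = 0.323). The groups did not overlap for these 2 of the 8 genes, nor did they for 1.45% of all genes tested.

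The difference of the saracatinib effect between bleomycin and saline lungs was tested as an interaction. None of the 8 genes was called, where 0.61% of all genes were called higher and 0.446% lower; 3 of the 8 had an unadjusted p under 0.05 in edgeR, as did 3449 genes in all. For Igf1 the difference was -0.58 ± 0.38 (edgeR adjusted p = 0.445), so the saracatinib difference of Igf1 was not shown to depend on bleomycin. Igfbp4 had the lowest adjusted p, at -0.82 ± 0.23 (edgeR adjusted p = 0.0772). DESeq2 called it (adjusted p = 0.025), as the only 1 of 25 alternatives to do so (adjusted p up to 0.149). Igfbp3 gave 0.96 ± 0.33 (edgeR adjusted p = 0.134) and Igfbp6 0.78 ± 0.34 (edgeR adjusted p = 0.234).

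Among saracatinib-treated mice, 6 of the 8 genes were called between bleomycin and saline lungs, 2 higher and 4 lower, where 7.79% of all genes were called higher and 8.18% lower. Igf1 was higher as given above, and Igfbp7 was higher at 0.41 ± 0.14 (edgeR adjusted p = 0.0473). Igfbp3 (-1.24 ± 0.24, edgeR adjusted p = 0.00191), Igfbp6 (-0.85 ± 0.24, edgeR adjusted p = 0.0229), Igfbp5 (-0.67 ± 0.13, edgeR adjusted p = 0.00217) and Igf1r (-0.58 ± 0.08, edgeR adjusted p = 0.000113) were lower. Igfbp4 was not called here (-0.17 ± 0.16, edgeR adjusted p = 0.522), and neither was Igfbp2 (0.57 ± 0.43, edgeR adjusted p = 0.404). The groups overlapped for the called genes Igfbp3, Igfbp6 and Igfbp7. They did not overlap for 3 of the 8 genes, nor did they for 10.8% of all genes tested. The Igfbp7 call was lost in 10 alternatives, with an adjusted p up to 0.130 without library 5 of the saline saracatinib group. The Igfbp6 call was lost in a fit of only the compared groups (adjusted p = 0.059) and without library 1, 3 or 4 of the bleomycin saracatinib group (adjusted p = 0.0674, 0.0566 and 0.0658).

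**Figure D2:**
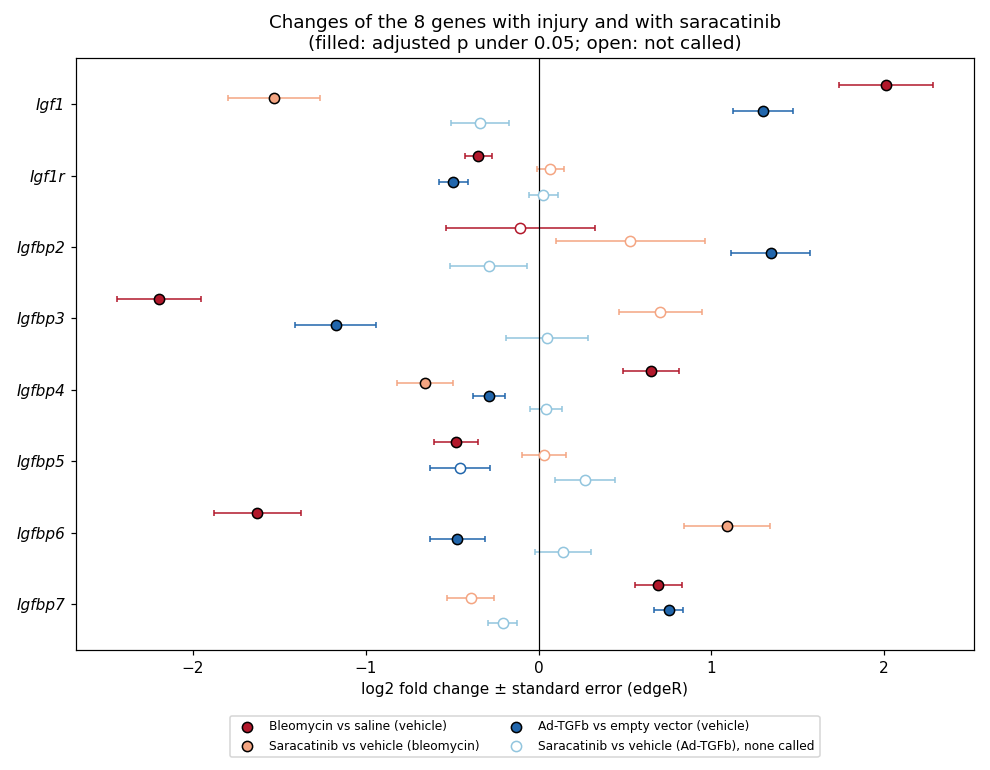
Log2 fold change with its standard error (edgeR) for the 8 genes in 4 comparisons; filled points were called at an adjusted p under 0.05 and open points were not. Igf1 lay at 2.01 with bleomycin and 1.30 with Ad-TGFb, while saracatinib lay at -1.53 in bleomycin lungs and -0.34 in Ad-TGFb lungs.

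TGF-β1 overexpression also moved 7 of the 8 genes. In vehicle-treated mice, Igf1, Igfbp2 and Igfbp7 were higher in Ad-TGFb than in empty vector lungs, and Igf1r, Igfbp3, Igfbp4 and Igfbp6 were lower. Of the 18834 genes tested, 11.5% were called higher and 14.3% lower. The groups did not overlap for 5 genes, nor did they for 8.95% of all genes tested. Igfbp5 was not called. The median log2 fold change was -0.37 over the 8 genes and -0.01 over all genes tested.

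Igf1 had 99.2, 105, 84.4, 53.6 and 84.1 CPM in Ad-TGFb vehicle lungs, against 34.2, 31.5, 37.8, 36.1 and 31.6 CPM in empty vector vehicle lungs. The groups did not overlap, and library 4 of the Ad-TGFb group was the nearest to the empty vector lungs (log2 fold change 1.30 ± 0.17, a fitted 2.46-fold, edgeR adjusted p = 0.000163). Igfbp2, a binding protein with an integrin-binding motif, had 117, 120, 88.6, 120 and 96.9 CPM in Ad-TGFb vehicle lungs, against 71.5, 43.0, 34.0, 27.3 and 35.3 CPM in empty vector vehicle lungs. It was higher by a fitted 2.54-fold with no overlap (log2 fold change 1.34 ± 0.23, edgeR adjusted p = 0.000886), and library 1 was the highest of the empty vector group.

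Igfbp7 had 328, 328, 284, 300 and 301 CPM in Ad-TGFb vehicle lungs, against 223, 161, 190, 173 and 157 CPM in empty vector vehicle lungs. The groups stood apart (log2 fold change 0.75 ± 0.08, edgeR adjusted p = 2.88e-05). Igfbp3 had 18.7, 16.0, 26.8, 31.4 and 16.7 CPM in Ad-TGFb vehicle lungs, against 78.9, 47.2, 39.8, 36.1 and 41.7 CPM in empty vector vehicle lungs. It was lower without overlap (-1.17 ± 0.23, edgeR adjusted p = 0.00164). Igf1r had 205 to 235 CPM in Ad-TGFb and 272 to 371 CPM in empty vector vehicle lungs, likewise without overlap (-0.49 ± 0.08, edgeR adjusted p = 0.000863).

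The changes of Igfbp6, Igfbp4 and Igfbp5 were smaller and closer to the threshold. Igfbp6 had 32.2 to 46.2 CPM in Ad-TGFb and 42.2 to 66.3 CPM in empty vector vehicle lungs, which overlapped (-0.47 ± 0.16, edgeR adjusted p = 0.0365). When the 2 libraries that lay farthest from their group means were left out, numbers 1 and 5 of the empty vector vehicle group, it was -0.28 (edgeR adjusted p = 0.228), and it also lost its call without any 1 of 6 libraries (adjusted p up to 0.120). Igfbp4 had 127 to 180 CPM in Ad-TGFb and 176 to 224 CPM in empty vector vehicle lungs, an overlap at the edge (-0.29 ± 0.09, edgeR adjusted p = 0.0273); its call was lost in 7 alternatives (adjusted p up to 0.0912). Igfbp5 had 292 to 351 CPM in Ad-TGFb and 351 to 502 CPM in empty vector vehicle lungs, meeting at the edge (-0.46 ± 0.17, edgeR adjusted p = 0.0596). DESeq2 and limma voom called Igfbp5 (adjusted p = 0.0394 and 0.0237), but only 4 of 16 alternatives did so (adjusted p up to 0.144).

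Saracatinib in Ad-TGFb mice called none of the 8 genes, where 0.0478% of all genes tested were called higher and 0.0425% lower. In edgeR 1 of the 8 had an unadjusted p under 0.05, as did 1649 genes in all, and DESeq2 and limma voom also called none of the 8. Igf1 had 61.1, 55.6, 88.7, 66.2 and 64.1 CPM in Ad-TGFb lungs on saracatinib, beside 53.6 to 105 CPM on vehicle, and the groups overlapped (-0.34 ± 0.17, edgeR adjusted p = 0.575). Igfbp7 had 250 to 283 CPM on saracatinib and 284 to 328 CPM on vehicle, without overlap (-0.21 ± 0.08, edgeR adjusted p = 0.484). The groups did not overlap for this 1 of the 8 genes, nor did they for 2.98% of all genes tested. The other 6 genes lay between -0.29 ± 0.22 (Igfbp2) and 0.27 ± 0.17 (Igfbp5).

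In empty vector mice saracatinib called none of the 8 genes either, where 0% of all genes tested were called higher and 0.00531% lower. In edgeR 0 of the 8 had an unadjusted p under 0.05, against 2084 genes in all, and DESeq2 and limma voom called 0 of the 8. The difference farthest from 0 was that of Igfbp2, with 32.3 to 81.8 CPM on saracatinib and 27.3 to 71.5 CPM on vehicle (0.46 ± 0.23, edgeR adjusted p = 0.468). Without library 1 of the empty vector vehicle group Igfbp2 was called (0.74, edgeR adjusted p = 0.039), in a fit that called 5.85% of 19000 genes. Igf1 stood at 0.16 ± 0.17 (edgeR adjusted p = 0.728).

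The saracatinib by Ad-TGFb interaction called 0 of the 8 genes, where 0% of all genes were called in either direction; 2 of the 8, Igfbp2 (-0.74 ± 0.32) and Igfbp7 (-0.28 ± 0.12), had an unadjusted p under 0.05 in edgeR, as did 1933 genes in all. DESeq2 called none of the 8 and limma voom 1, Igfbp2 (adjusted p = 0.0499), where limma voom called 2.19% of all genes. Without library 1 of the empty vector vehicle group edgeR called Igfbp2 (-1.03, adjusted p = 0.0336) and Igfbp7 (-0.37, adjusted p = 0.0336) and 6.26% of all genes, and without the 2 farthest libraries it called 0 of the 8 and 1.32% of all genes. Among saracatinib-treated mice, 4 of the 8 genes were called between Ad-TGFb and empty vector lungs, 2 higher and 2 lower, where 2.21% of all genes were called higher and 0.361% lower. Igf1 (0.80 ± 0.17, edgeR adjusted p = 0.0153) and Igfbp7 (0.47 ± 0.08, edgeR adjusted p = 0.00445) were higher, and Igfbp3 (-1.42 ± 0.23, edgeR adjusted p = 0.00282) and Igf1r (-0.35 ± 0.08, edgeR adjusted p = 0.029) were lower. For Igf1r the groups overlapped at the edge, at 206 to 241 CPM in Ad-TGFb and 240 to 314 CPM in empty vector lungs. They did not overlap for 4 of the 8 genes, including Igfbp2, which was not called, nor for 4.18% of all genes tested. The Igf1 call was lost without library 3 of the Ad-TGFb saracatinib group or library 4 or 5 of the empty vector saracatinib group (adjusted p = 0.0659, 0.0585 and 0.059). The Igf1r call was lost without any 1 of 6 libraries (adjusted p up to 0.0855).

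The injuries were set against each other in 1 fit of all 40 libraries, as the bleomycin effect minus the Ad-TGFb effect in vehicle-treated mice. Model and control differ together here, since saline and empty vector are the controls. Of the 8 genes 3 were called, Igfbp4 higher and Igfbp3 and Igfbp6 lower, where 8.64% of all genes were called higher and 6.47% lower. Igfbp4 differed by 0.94 ± 0.20 (edgeR adjusted p = 0.00105), having moved up with bleomycin and down with Ad-TGFb. Relative to its own control, Igfbp6 fell further with bleomycin (difference -1.15 ± 0.31, edgeR adjusted p = 0.00916), and so did Igfbp3 (-1.01 ± 0.35, edgeR adjusted p = 0.0428). Mean Igfbp3 was 26.4 CPM in bleomycin vehicle and 21.9 CPM in Ad-TGFb vehicle lungs. Its controls stood farther apart, at 119 CPM in saline vehicle and 48.7 CPM in empty vector vehicle lungs. Mean Igfbp6 was 25.3 and 38.0 CPM in these injured groups, and 76.9 and 52.0 CPM in their controls.

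The Igfbp3 call between the injuries was lost in 13 of 25 alternatives, with an adjusted p up to 0.107 without library 4 of the Ad-TGFb vehicle group. Igfbp2, called higher with Ad-TGFb and not called with bleomycin, differed by -1.44 ± 0.52 (edgeR adjusted p = 0.0553), and 7 of 25 alternatives called it. For Igf1 the larger bleomycin effect was not called as a difference (0.72 ± 0.33, edgeR adjusted p = 0.141). Igf1r (0.15 ± 0.12), Igfbp5 (-0.02 ± 0.22) and Igfbp7 (-0.05 ± 0.17) were not called, with edgeR adjusted p of 0.421, 0.974 and 0.878.

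The saracatinib effect in bleomycin lungs minus that in Ad-TGFb lungs called 2 of the 8 genes, both lower, where 1.05% of all genes were called higher and 1.41% lower. Igf1 differed by -1.19 ± 0.33 (edgeR adjusted p = 0.0441) and Igfbp4 by -0.70 ± 0.20 (edgeR adjusted p = 0.0474). Neither call was stable: without library 3 of the bleomycin vehicle group the Igf1 difference was -0.96 (edgeR adjusted p = 0.136) and the Igfbp4 difference -0.47 (edgeR adjusted p = 0.148), and most fits that left out 1 library lost both. Igfbp6 differed by 0.95 ± 0.31 (edgeR adjusted p = 0.0868).

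Markers of several cell types also differed in these comparisons, and their counts are to be read beside the shares of all genes called, 20.6% higher and 20.3% lower with bleomycin, 5.31% and 8.71% with saracatinib in bleomycin lungs and 11.5% and 14.3% with Ad-TGFb. All 10 of 10 markers of recruited and tissue macrophages were called higher in bleomycin than in saline vehicle lungs, 7 of 10 were called lower with saracatinib in bleomycin lungs, and 8 of 10 were called higher with Ad-TGFb. Their summed CPM ran from 508.9 to 1099 in bleomycin saracatinib, 1237 to 2485 in bleomycin vehicle, 203.3 to 401.8 in saline saracatinib and 309.5 to 401.8 in saline vehicle lungs. In the other model it ran from 394.4 to 627.0 in Ad-TGFb saracatinib, 525.6 to 629.9 in Ad-TGFb vehicle, 338.3 to 454.3 in empty vector saracatinib and 293.0 to 439.1 in empty vector vehicle lungs. No macrophage marker was at 0 in all 5 lungs of a group.

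Of 6 markers of activated fibroblasts, 5 were called higher with bleomycin and 5 lower with saracatinib in bleomycin lungs, and 3 of the 5 tested were called higher with Ad-TGFb. Their sum ran from 390.6 to 574.3 CPM in bleomycin saracatinib, 731.5 to 1941 CPM in bleomycin vehicle, 274.8 to 439.5 CPM in saline saracatinib and 369.8 to 546.9 CPM in saline vehicle lungs. In the Ad-TGFb model it ran from 244.2 to 352.8 CPM in Ad-TGFb saracatinib, 273.3 to 424.4 CPM in Ad-TGFb vehicle, 211.9 to 275.4 CPM in empty vector saracatinib and 160.2 to 336.1 CPM in empty vector vehicle lungs. The bleomycin vehicle lung with the most Igf1 and Igfbp4, library 3, had the highest macrophage and activated fibroblast sums. Of 6 capillary endothelium markers 3 were called lower with bleomycin and 1 higher with saracatinib in bleomycin lungs; of 8 general fibroblast markers 4 were called higher and 3 lower with bleomycin.

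Of 6 alveolar macrophage markers 2 were called higher and 1 lower with bleomycin, 2 lower with saracatinib in bleomycin lungs and 3 higher with Ad-TGFb. Their sum ran from 212 to 301 CPM in bleomycin saracatinib, 391 to 607 CPM in bleomycin vehicle and 134 to 319 CPM in saline vehicle lungs, and from 203 to 641 CPM in Ad-TGFb saracatinib, 367 to 488 CPM in Ad-TGFb vehicle and 82.7 to 369 CPM in empty vector vehicle lungs. All 3 club cell and all 3 ciliated cell markers were called lower in both injuries on vehicle. The club cell sum ran from 2014 to 4043 CPM in bleomycin and 4916 to 7807 CPM in saline vehicle lungs, and from 2913 to 4623 CPM in Ad-TGFb and 3909 to 9197 CPM in empty vector vehicle lungs. Of 3 T cell markers 2 were called higher in each injury, with sums of 12.5 to 24.1 CPM in bleomycin and 8.93 to 12.1 CPM in saline vehicle lungs, and of 46.8 to 53.0 CPM in Ad-TGFb and 10.1 to 39.1 CPM in empty vector vehicle lungs. With bleomycin, 3 of 6 alveolar type 1 markers were called higher and 3 of 4 cardiac muscle markers lower. The cardiac muscle sum spread widely, from 23.2 to 94.7 CPM in bleomycin vehicle and 85.9 to 275 CPM in saline vehicle lungs. It ran from 159 to 738 CPM in Ad-TGFb vehicle and 49.8 to 1264 CPM in empty vector vehicle lungs. With Ad-TGFb, 3 of 4 alveolar type 2 markers were called higher and 3 of 6 smooth muscle and pericyte markers lower. The part of these cell types in the IGF results was not tested.

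**Figure D3:**
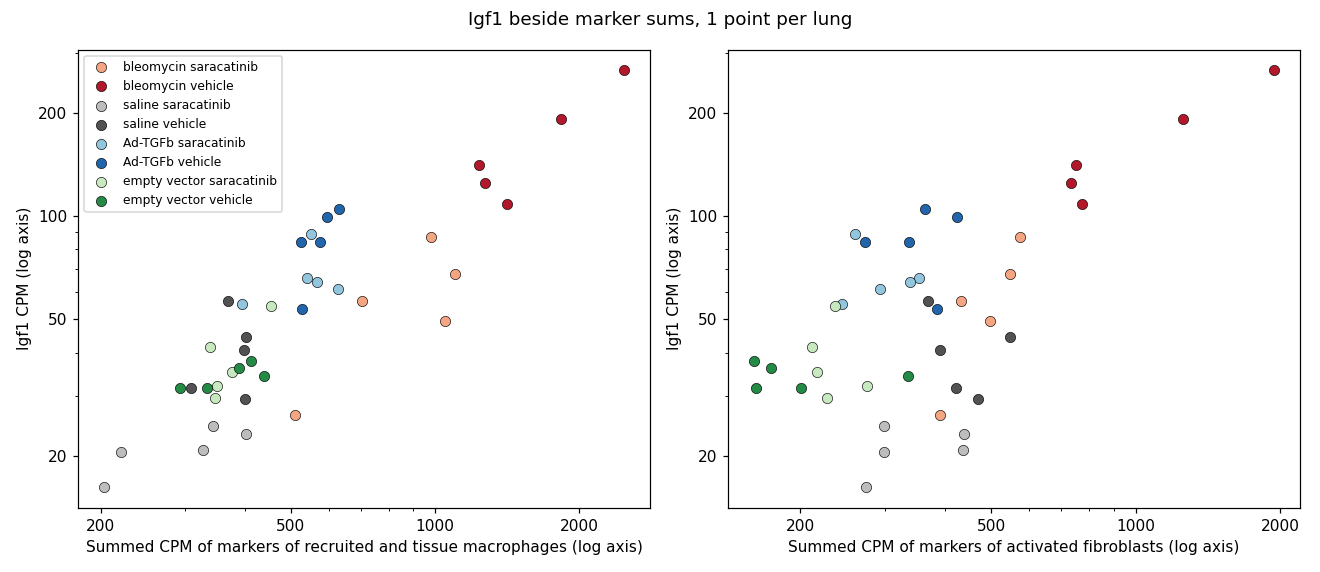
Igf1 CPM of each of 40 lungs against the summed CPM of 10 macrophage markers (left) and of 6 activated fibroblast markers (right), both axes logarithmic. The 5 bleomycin vehicle lungs lie at the upper right of both panels, at 108 to 266 CPM of Igf1, and the bleomycin saracatinib lungs lie below and to the left of them.

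The rest of the pathway was described with 34 further genes, of which 31 passed the low-count filter with the bleomycin libraries and 32 with the Ad-TGFb libraries. With bleomycin in vehicle-treated mice 9 were called higher and 9 lower, beside 20.6% and 20.3% of all genes tested. Pappa, which codes for the protease PAPP-A that cuts IGFBP4, had 16.9 to 44.2 CPM in bleomycin and 7.15 to 10.7 CPM in saline vehicle lungs (1.55 ± 0.24, edgeR adjusted p = 6.46e-05). Igf2, the second ligand, was scarce, at 0.321 to 1.06 CPM in bleomycin and 0.906 to 2.34 CPM in saline vehicle lungs (-1.03 ± 0.37, edgeR adjusted p = 0.0302). Grb14, an adaptor that inhibits the insulin receptor, was lower (-0.91 ± 0.16, edgeR adjusted p = 0.000148), and so was Igf2bp2, which codes for an RNA-binding protein (-0.87 ± 0.12, edgeR adjusted p = 1.79e-05).

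With saracatinib in bleomycin lungs 2 of the 31 pathway genes were called higher and 5 lower, beside 5.31% and 8.71% of all genes tested. Pappa had 7.43 to 14.3 CPM on saracatinib, beside 16.9 to 44.2 CPM on vehicle, without overlap (-1.14 ± 0.24, edgeR adjusted p = 0.00495), so that the protease gene and its substrate's gene Igfbp4 were both lower. Stc1, which codes for stanniocalcin-1, an inhibitor of PAPP-A, was also lower (-0.93 ± 0.25, edgeR adjusted p = 0.0191). Irs1, an adaptor of the IGF1 receptor, was higher (0.57 ± 0.14, edgeR adjusted p = 0.0125), and Shc1, another adaptor, was lower (-0.30 ± 0.07, edgeR adjusted p = 0.0118).

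With Ad-TGFb in vehicle-treated mice 6 of the 32 pathway genes were called higher and 2 lower, beside 11.5% and 14.3% of all genes tested. Pappa2, a related protease, had 8.19 to 12.2 CPM in Ad-TGFb and 2.25 to 6.82 CPM in empty vector vehicle lungs (1.09 ± 0.28, edgeR adjusted p = 0.00885). Igf2 was scarce and lower, at 0.523 to 0.767 CPM in Ad-TGFb and 0.725 to 1.43 CPM in empty vector vehicle lungs (-0.76 ± 0.27, edgeR adjusted p = 0.0415). These Igf2 ranges overlapped. Grb10, an adaptor that restrains insulin and IGF1 receptors, was higher (0.52 ± 0.08, edgeR adjusted p = 0.00041). Foxo3 was called higher (0.35 ± 0.13, edgeR adjusted p = 0.0475). Its range of 215 to 244 CPM in Ad-TGFb vehicle lungs lay within the 142 to 256 CPM of empty vector vehicle lungs. Pappa had 4.92 to 5.87 CPM in Ad-TGFb and 4.09 to 6.44 CPM in empty vector vehicle lungs and was not called. Between the injuries Pappa differed by 1.6 ± 0.29 (edgeR adjusted p = 0.000252), and its saracatinib effect by -1.15 ± 0.29 (edgeR adjusted p = 0.0296).

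**Figure D4:**
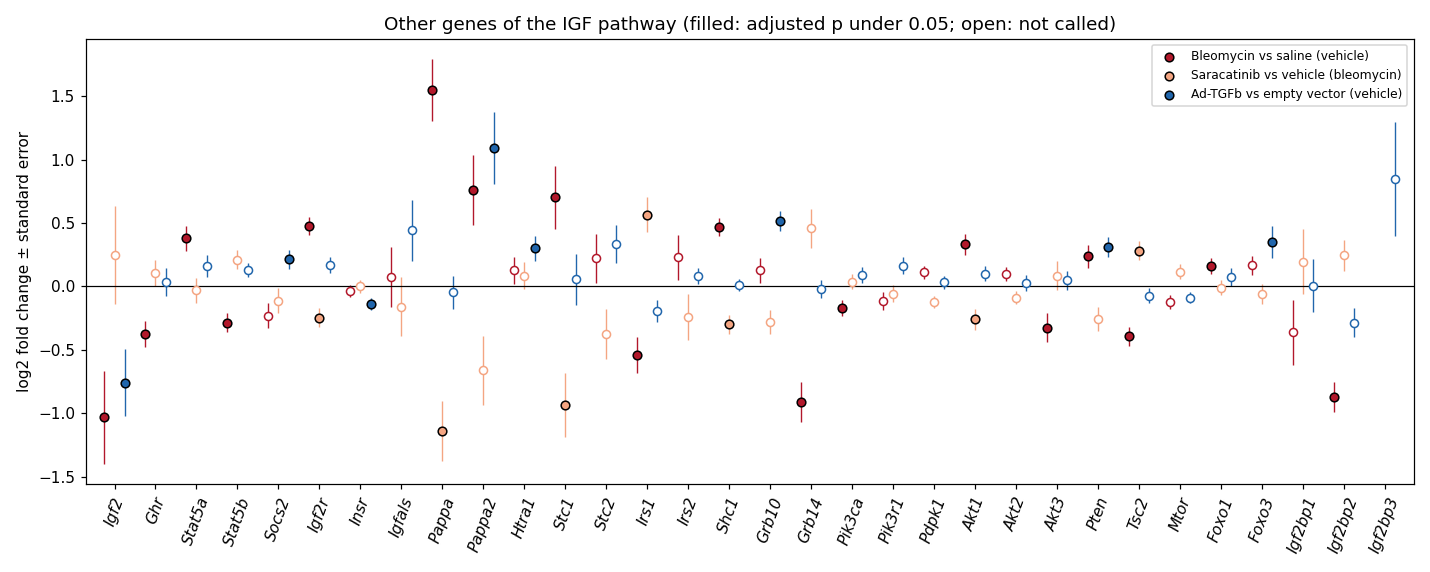
Log2 fold change with its standard error (edgeR) for the other genes of the IGF pathway in 3 comparisons; filled points were called and open points were not. Pappa stands highest with bleomycin, at 1.55, and lowest with saracatinib in bleomycin lungs, at -1.14, and Pappa2 stands highest among the filled Ad-TGFb points, at 1.09.

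Within groups, the genes most like each member were found by Pearson's r of log2 CPM after subtracting group means, over 40 libraries and 17698 genes. All points share libraries and scaling, and r is given as a description. Igf1 varied most like Sfrp1 (r = 0.81) and Mmp14 (0.78), and Igf1r like Plcb3 (0.87) and Mical2 (0.81). Igfbp2 varied most like Myo1c (0.92) and Popdc3 (0.92), and Igfbp3 like Prkg2 (0.79) and Vipr2 (0.75). Igfbp4 varied most like Fstl1 (0.85) and Dbn1 (0.83), and Igfbp5 like Cdon (0.78) and Smpd3 (0.78). Igfbp6 varied most like Nipal3 (0.80) and Grap (0.76), and Igfbp7 like Ostf1 (0.91) and Sparc (0.90). Among the 8 genes themselves the strongest were Igfbp2 with Igfbp7 (0.73), Igf1 with Igfbp6 (-0.56) and Igfbp3 with Igfbp6 (0.50). The neighbours Igfbp2 and Igfbp5 had r = -0.44.

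By group mean, Igf1 was highest in bleomycin vehicle lungs, whose values did not overlap those of the next group, and lowest in saline saracatinib lungs, also apart from the next group. Ad-TGFb vehicle, Ad-TGFb saracatinib, bleomycin saracatinib, saline vehicle, empty vector saracatinib and empty vector vehicle lungs lay between in that order, each overlapping its neighbour. Igf1r had its 4 lowest means in the 4 injured groups, where neighbours overlapped throughout. Igfbp7 was highest in bleomycin vehicle lungs, apart from the next group, bleomycin saracatinib. The control groups also differed between the models, with mean Igfbp7 of 267 CPM in saline vehicle and 181 CPM in empty vector vehicle lungs. An order across the models therefore cannot be told apart from a difference between the models.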

How the data were processed

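RNA-seq counts of 40 mouse lungs were analysed. Libraries were made with a stranded kit after ribosomal RNA depletion, per the labels' protocols. STAR 2.6.1d, Picard, Subread 1.6.3, featureCounts and edgeR, and the builds mm9 and GRCm38, are named in the submitters' processing notes. The authors deposited raw gene counts per library and model, and the shorter tables named as TMM normalized hold the same raw counts (14832 of 14832 and 14856 of 14856 rows identical). All 55536 Ensembl IDs matched GENCODE M21 (GRCm38), which gave symbols, coordinates and exon lengths. Genes were kept by filterByExpr (minimum count 10), scaled by TMM and tested with edgeR 4.0.16's quasi-likelihood test (R 4.3.3), with 1 coefficient per group, no covariate and Benjamini-Hochberg adjustment over all genes tested; log2 CPM used a prior count of 2. Each model's 4 groups shared a fit, and differences between models used a fit of all 8 groups. The test was first run on simulated counts with known changes. Alternatives were limma voom 3.58.1 with quality weights, DESeq2 1.42.0, its size factors within edgeR, testing without the filter, fitting the compared groups alone, and leaving out each library or, per model, the 2 libraries that lay farthest from their group means.

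The 8 genes, the pathway and marker lists and the tests were chosen with earlier results of these data known. All 8 genes are named in every main comparison, and of the pathway genes up to 4 called ones with the largest change in a comparison, together with the values of a gene so named in another comparison. Replicates are separate mice, numbered within a group. No pair of replicates agreed within counting noise (chi-square per degree of freedom 4.29 to 52.7 over 80 pairs). The labels give no batch and no sex per mouse, and neither was fitted. Sex was not inferred from the counts of sex-linked genes, so its balance between groups was not tested. Promoters are from RefSeq (GRCm38.p6).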

Additional observations from a re-analysis of the deposited data

Results flagged for a closer look

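Of 64 gene and group sets of 5 lungs, 3 held a lung whose gap to the nearest other, on the log2 CPM scale, exceeded 0.71 of the group's range, where chance gives about 1 in 20. They were Igf1r and Igfbp4 in library 3 of the bleomycin vehicle group (241 and 376 CPM) and Igfbp5 in library 4 of the bleomycin saracatinib group (192 CPM). On the CPM scale, tried after seeing the data, 4 sets did: Igf1r, Igfbp4 and Igfbp7 in library 3 of the bleomycin vehicle group and Igfbp3 in library 1 of the empty vector vehicle group.

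A test of the difference between the models was past the threshold for 5 results. The bleomycin effect minus the Ad-TGFb effect in vehicle-treated mice was -1.01 for Igfbp3, 0.94 for Igfbp4 and -1.15 for Igfbp6 (log2, edgeR adjusted p = 0.0428, 0.00105 and 0.00916). Of 25 alternatives, 12 called the Igfbp3 difference and all 25 the other two. The saracatinib effect in bleomycin minus that in Ad-TGFb lungs was -1.19 for Igf1 and -0.70 for Igfbp4 (log2, edgeR adjusted p = 0.0441 and 0.0474). Most alternatives lost these calls: 11 of 25 called the Igf1 difference and 9 of 25 the Igfbp4 difference.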

How the results depend on the processing

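The 7 calls for bleomycin against saline on vehicle, and those of Igf1, Igfbp4 and Igfbp6 for saracatinib in bleomycin lungs, were kept in all 16 alternatives run for each; over these the saracatinib log2 fold change ran from -1.73 to -1.30 for Igf1, -0.74 to -0.44 for Igfbp4 and 0.81 to 1.21 for Igfbp6. Of 1824 alternative values of the 96 gene results, 1674 kept direction and side of the threshold, 81 lost a call, 27 gained one and 42, from 13 results near 0 and not called, changed sign; the cause was not tested. The number of members called for saracatinib in bleomycin lungs was 5, instead of 3, under DESeq2, without the 2 farthest libraries of each model and with only the compared groups. The bleomycin interaction had 1 under DESeq2 instead of 0, and the Ad-TGFb interaction 1 under limma voom instead of 0. The saracatinib difference between models had 0 without the low-count filter and 1 under limma voom, instead of 2. Leaving out 1 library gave 0 to 1 members for saracatinib in empty vector lungs, 2 to 4 for Ad-TGFb against empty vector on saracatinib, 0 to 2 for the Ad-TGFb interaction and 0 to 3 for the saracatinib difference between models. The share of all genes called also moved between fits, as given above for saracatinib in empty vector lungs and the Ad-TGFb interaction. These counts are therefore not a result about the members alone. Sign changes when 1 library was left out (log2, lowest and highest value) were as follows. For Igfbp2 they were -0.30 and 0.15 for bleomycin against saline on vehicle and -0.51 and 0.10 for saracatinib in saline lungs. For Igfbp5 they were -0.0047 and 0.12 for saracatinib in bleomycin lungs, -0.15 and 0.19 for saracatinib in empty vector lungs (-0.072 under limma voom), and -0.10 and 0.027 for the injury difference between models (0.025 under limma voom and 0.023 without the farthest libraries). For saracatinib in Ad-TGFb lungs they were -0.043 and 0.21 for Igfbp3 and -0.028 and 0.092 for Igfbp4. For saracatinib in empty vector lungs they were -0.042 and 0.051 for Igfbp4 (0.036 without the farthest libraries) and -0.069 and 0.14 for Igfbp6. For the Ad-TGFb interaction they were -0.033 and 0.10 for Igfbp4, and Igfbp6 was -0.078 without the farthest libraries. Between models they were -0.166 and 0.0305 for the Igfbp7 injury effect and -0.012 and 0.077 for the Igf1r saracatinib effect. No paired analysis was possible because the animal numbers differ between groups and pair no samples. Counts per library of the 8 genes ran from 153 (Igf1) to 7757 (Igfbp5).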
